A study of Schizosaccharomyces pombe with 6 samples.

Results

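The rad genes of the fission yeast Schizosaccharomyces pombe were first found through mutants that are sensitive to radiation, and they encode proteins that detect DNA damage, stop the cell cycle and repair DNA. Members were taken from the deposited table of transcription units as every unit that holds a gene whose annotated symbol is rad followed only by a number. This gave 22 units of 5484, one for each of the 22 such genes in the annotation. The rule uses symbols and no measured value. All 22 units passed the filter on low counts, with between 134 and 32752 counts per library, and were among the 5208 units tested.

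Newly made RNA was sequenced from a single haploid h- strain, ASP167, before and during depletion of Spt5, an elongation factor of RNA polymerase II. In this strain spt5 was driven by the thiamine-repressible promoter Pnmt81 and tagged with V5 and the degron IAA17, with the markers hphMX6 and kanMX6 on either side. The altered ade6 locus carried OsTIR1 and AtTIR1 auxin receptors fused to skp1 under Padh15, the latter tagged with 2NLS-9myc, with natMX6, and ura4 was deleted (ura4-D18). Cells grew in EMM, a minimal medium, and the labels list no treatment for the 0 h group, while the 2.5 h and 4.5 h groups had grown for those times with thiamine and the synthetic auxin NAA (1-naphthaleneacetic acid). Each group had 2 libraries, which the labels number without naming separate cultures, so p-values measure only the spread between these libraries. RNA was labelled with 5 mM 4-thiouracil for 10 min before purification. All libraries share the same alleles and there was no untreated time course, and the effects of losing Spt5, of either additive and of time cannot be told apart. In bulk libraries a shift in the share of cells in a given state and a change of RNA per cell cannot be told apart either.

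As background, damaged or stalled replication forks expose single-stranded DNA, on which the kinase Rad3 and its partner Rad26 assemble, while the loader Rad17 places a ring-shaped clamp of Rad9, Rad1 and Hus1 beside it. Rad4 joins clamp and kinase to the downstream kinase Chk1, and the adaptor proteins Rad24 and Rad25 delay mitosis by binding phosphorylated targets. Breaks are mended by homologous recombination, bulky lesions by nucleotide excision repair, and blocked forks are bypassed by damage tolerance.

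The libraries held 11525663 to 35673601 counts. The spt5 unit, the check of the labels, went from 1045 and 721 normalised CPM (library-scaled counts, TMM) at 0 h to 121 and 108 at 2.5 h and 98.2 and 92.3 at 4.5 h. The 2 libraries of 0 h stood apart from each other: 681 of 5208 tested units (13.1%) differed at least 2-fold between them. Among the rad units 2 differed by that much at 0 h, rad24 and rad31, and 0 did at 2.5 or 4.5 h. Replicate 1 was below replicate 2 of 0 h in 17 of the 22 units. The share over all tested units was not computed, so this count is not a trait of the rad units. Results against 0 h are therefore also given without each of these libraries.

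At 2.5 h 0 of the 22 rad units passed an adjusted p of 0.05 (edgeR, quasi-likelihood, Benjamini-Hochberg over all units), where 17.4% of all tested units and 13.5% of coding units did (12.3% of all units higher and 5.11% lower). At an unadjusted p under 0.05 there were 8 rad units (36.4%, against 33.6% of all units), and DESeq2 called 1, the fall of rad60, where it called 22.5% of all units. At 4.5 h 6 of 22 passed (27.3%), against 17.9% of all units and 15.7% of coding units. Of these 5 fell (22.7%, against 7.8% of all units and 8.3% of coding units). In the other direction 1 rose (4.55%, against 10.1% of all units and 7.38% of coding units). The 5 that fell were rad50, rad8, rad9, rad16 and rad15, and the unit of rad1 rose. At an unadjusted p under 0.05 there were 9 (40.9%, against 34.1%), and DESeq2 called 7, where it called 23.8% of all units. From 2.5 to 4.5 h 1 unit fell, that of rad50, and 0 rose, where 10.3% of all units passed (3.34% higher and 6.91% lower). At an unadjusted p under 0.05 there were 7 (31.8%, against 31.0%), and DESeq2 called 2, where it called 17.7%.

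The median log2 fold change of the 22 units was -0.10 at 2.5 h and -0.26 at 4.5 h, beside 0.01 and 0.02 for all tested units and -0.06 and -0.03 for coding units. The 4.5 h median was -0.50 without replicate 1 of 0 h and -0.07 without replicate 2 of 0 h, where coding units were at -0.03 and -0.06. In the same fits the 2.5 h median was -0.27 and -0.0072, where coding units were at -0.06 and -0.11. Without replicate 2 of 0 h the rad median was thus not below that of coding units at 2.5 h and close to it at 4.5 h. The single units ranged from -0.64 (rad60) to 0.67 (rad3) at 2.5 h and from -1.17 (rad50) to 0.71 (rad1) at 4.5 h. The libraries of 2.5 h lay wholly above those of 0 h for 3 rad units (31.7% of all tested units, 24.8% of coding units). They lay wholly below for 9 (25.0%, 28.4%). At 4.5 h 4 rad units lay above (33.7%, 30.0%) and 10 below (27.9%, 30.1%). From 2.5 to 4.5 h 8 lay above (36.3%, 39.9%) and 11 below (37.4%, 34.6%). All 4 treated libraries lay below both 0 h libraries for 7 rad units (rad9, rad26, rad52, rad54, rad15, rad2 and rad8), a pattern that 14.0% of all tested units show, and above both for 1, rad1, against 20.6% of all tested units.

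**Figure D1:**
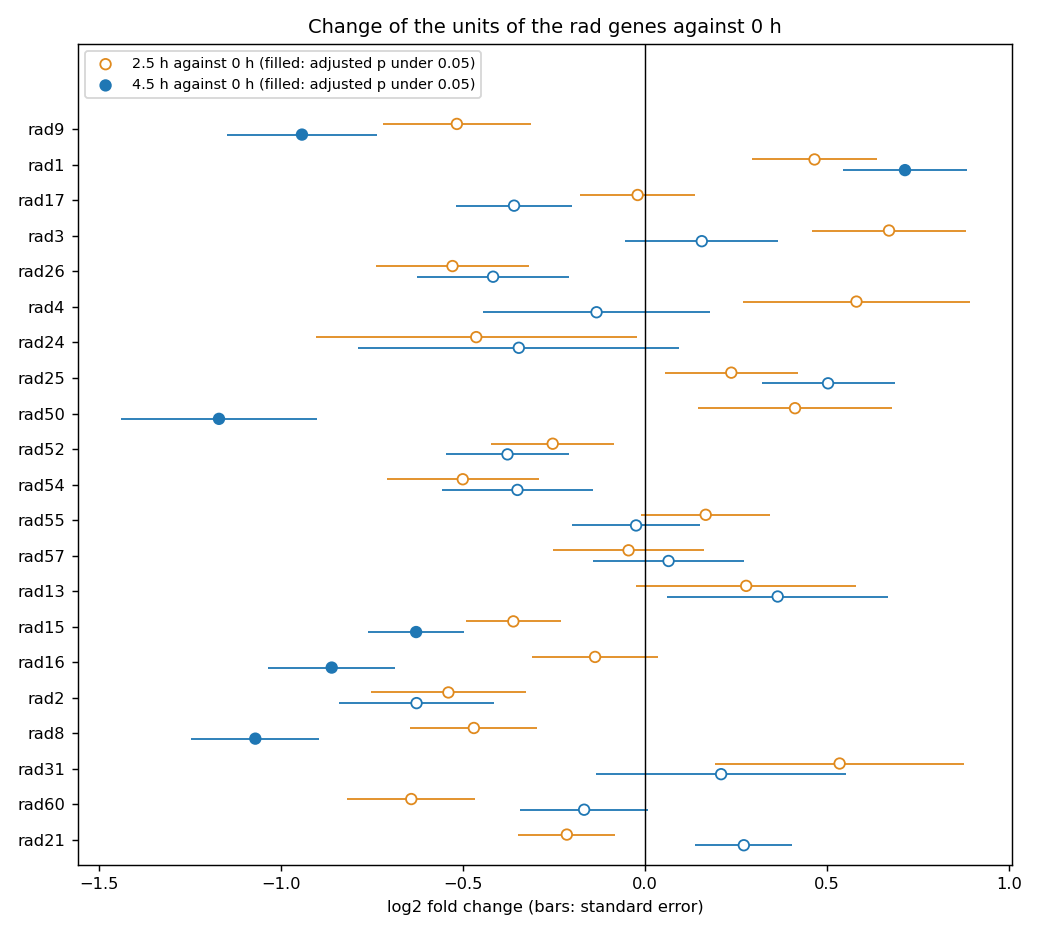
log2 fold change of 21 of the 22 rad units at 2.5 h (orange) and 4.5 h (blue) against 0 h, with bars for the standard error and filled points for an adjusted p under 0.05. No orange point is filled, and the filled blue points are rad50, rad8, rad9, rad16 and rad15 below 0 and rad1 above 0.

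Levels at 0 h spanned a wide range when set per length. The highest mean levels, in normalised CPM per kilobase of unit without introns, were those of the 14-3-3 protein genes rad24 (344) and rad25 (332). These were followed by the recombination genes rad54 (126) and the rad52 unit (122), and by rad3 (75.0) and rad8 (65.3). The lowest were the rad1 unit (8.47), rad31 (11.97) and rad9 (12.5). The per-kilobase levels of rad24 were 488 and 200 in the 2 libraries of 0 h and those of rad25 356 and 309, so this pair did not differ beyond its spread. The rad54 levels were 102 and 151 and those of rad52 108 and 136, which also overlap.

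**Figure D2:**
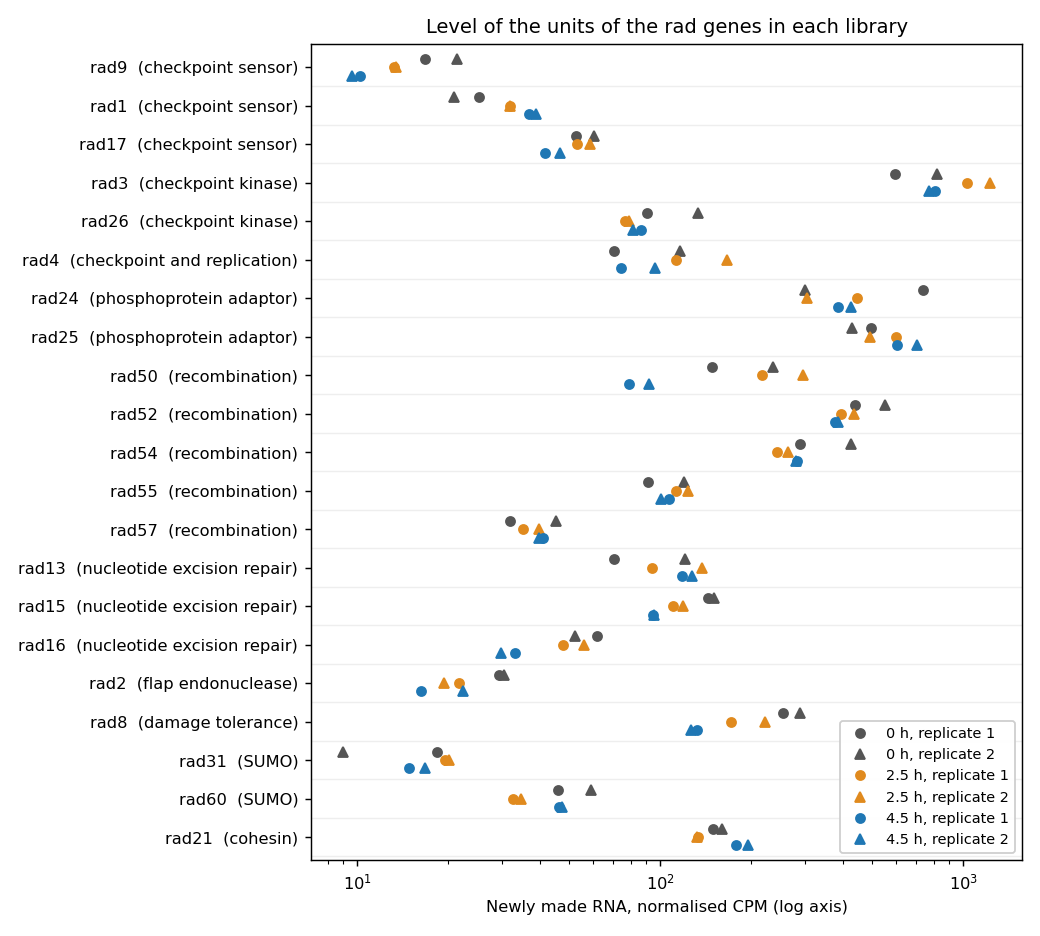
Normalised CPM (log axis) of 21 rad units in each of the 6 libraries, grouped by the role of the gene, with grey for 0 h, orange for 2.5 h and blue for 4.5 h, and circles and triangles for replicates 1 and 2. The blue points of rad50, rad8, rad9, rad16 and rad15 lie to the left of their grey points, and those of rad1 lie to the right.

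Among the checkpoint sensors, 2 subunits of the same clamp went in opposite directions. The unit of rad9 (SPAC664.07c, chromosome I, 1713993 to 1715681, minus strand, ASM294v2) was at 16.8 and 21.3 normalised CPM at 0 h, 13.2 and 13.4 at 2.5 h and 10.2 and 9.64 at 4.5 h. Each time point was below the one before it, with no overlap between groups. The log2 fold change of rad9 was -0.52 at 2.5 h (SE 0.20, adjusted p = 0.136) and -0.94 at 4.5 h (SE 0.21, adjusted p = 0.03), a level 1.92-fold lower. The later value became -0.75 when replicate 2 of 0 h was left out and -1.21 when replicate 1 of 0 h was.

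The unit of rad1 (SPAC1952.07, chromosome I, 4978471 to 4981368, plus strand) was at 25.3 and 20.9 normalised CPM at 0 h, 31.9 and 31.9 at 2.5 h and 36.8 and 39.0 at 4.5 h. Every treated library was above both 0 h libraries. The log2 fold change was 0.47 at 2.5 h (SE 0.17, adjusted p = 0.115) and 0.71 at 4.5 h (SE 0.17, adjusted p = 0.0375), a 1.64-fold rise. This value belongs to more than rad1, since the unit also holds the noncoding gene SPNCRNA.1040, and 85.6% of it is overlapped on the other strand by the coding unit SPAC1952.08c. That overlapping unit rose at 2.5 h (0.78, SE 0.14, adjusted p = 0.0156) and was at 0.48 at 4.5 h (adjusted p = 0.0604). No source used here states the strand setting of the counting. At 0 h SPAC1952.08c was at 100 and 113 normalised CPM, where the rad1 unit was at 25.3 and 20.9. Despite an overlap of 2481 bases, the 2 units thus did not hold the same reads. Whether some reads of 1 strand were counted for the other was not tested. The third clamp gene, hus1, named here for its complex and not for its values, was at -0.35 (SE 0.23, adjusted p = 0.342) and -0.43 (SE 0.23, adjusted p = 0.251). Whether rad9 and rad1 differed from hus1 was not tested.

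The clamp loader gene rad17 had a log2 fold change of -0.02 at 2.5 h (adjusted p = 0.948) and -0.36 at 4.5 h (SE 0.16, adjusted p = 0.169). Its 4.5 h libraries, at 41.7 and 46.6 normalised CPM, were both below the 0 h libraries at 52.8 and 60.5, without passing the test.

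The kinase gene rad3 was highest at 2.5 h. Its unit (SPBC216.05, chromosome II, 904086 to 913540, plus strand), the longest of the 22 at 9455 bases, was at 595 and 823 normalised CPM at 0 h, 1028 and 1228 at 2.5 h and 808 and 772 at 4.5 h. The 2.5 h libraries were above all others, and the 4.5 h libraries fell within the range of 0 h. The log2 fold change of rad3 was 0.67 at 2.5 h (SE 0.21, adjusted p = 0.0793), 0.16 at 4.5 h (SE 0.21, adjusted p = 0.648) and -0.51 (SE 0.21, adjusted p = 0.159) between the 2, none past the threshold. The 2.5 h value rests on the 0 h libraries: it was 0.35 without replicate 1 of 0 h and 0.92 without replicate 2 of 0 h. In the authors' deposited table this unit has a 3' untranslated part of 2093 bases. Over 2623 bases it overlaps the convergent unit of swi1, which encodes a fork protection protein. The swi1 unit rose at 2.5 h (0.68, SE 0.13, adjusted p = 0.0209) and was at 0.40 at 4.5 h (adjusted p = 0.0895). For rad26, the partner of Rad3, the values were -0.53 (SE 0.21, adjusted p = 0.136) and -0.42 (adjusted p = 0.215). Its treated libraries, from 76.4 to 86.6 normalised CPM, were all below the 0 h libraries at 90.3 and 134.

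The gene rad4, a scaffold of both the checkpoint and the start of replication, lies beside the modified spt5 locus. The start of its unit (SPAC23C4.18c, chromosome I, 1060728 to 1062902, minus strand) is separated by 844 bases from the start of the divergent spt5 unit at 1063747. Whether the promoter replacement at spt5 bears on rad4 was not tested, since every library carries it. The unit was at 70.2 and 116 normalised CPM at 0 h, 113 and 166 at 2.5 h and 74.2 and 96.0 at 4.5 h. The groups of 0 h and 2.5 h overlapped, and its changes of 0.58 (SE 0.31, adjusted p = 0.25) and -0.13 (SE 0.31, adjusted p = 0.804) did not pass. Replicate 1 was below replicate 2 at each of the 3 times. From 2.5 to 4.5 h the groups did not overlap, and the change of -0.71 (SE 0.31, adjusted p = 0.183) did not pass, but it did with the replicate number as a block.

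Upstream of its unit rad4 carries the letters ACGCGT, the core of the MluI cell cycle box, which the G1/S transcription factor MBF binds in yeast and which reads the same on both strands. In the 300 bases before the start these letters were found for 2 of 22 rad units (9.09%) and for 128 of 4470 coding units (2.86%). The 30 bases around the motif, at chrI:1062911-1062940, are shown because rad4 lies beside the modified spt5 locus. They are given 5' to 3' on the strand of the gene, from the RefSeq copy of the genome, with the motif in capitals, which begins 26 bases before the start of the unit.
rad4: tagtggtgatggACGCGTttgtactcgtaa
The match describes letters only.

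The genes rad24 and rad25 encode 14-3-3 proteins. They are paralogues, and how reads shared by both were counted is not given in the sources used here, so their values are uncertain. The rad25 unit (SPAC17A2.13c, chromosome I, 3583080 to 3585188, minus strand) was at 495 and 430 normalised CPM at 0 h, 599 and 492 at 2.5 h and 604 and 707 at 4.5 h. The 4.5 h libraries were above both 0 h libraries, but the change of 0.50 (SE 0.18, adjusted p = 0.109) did not pass. Part of its 5' end is overlapped by the divergent mnr2 unit, which rose at both times (0.68, adjusted p = 0.025, and 0.66, adjusted p = 0.0281). The rad24 unit was at 735 and 302 normalised CPM in the 2 libraries of 0 h, a gap that covers its 4 treated values of 305 to 447. Its changes of -0.46 and -0.35 had a standard error of 0.44.

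Among the recombination genes, rad50 moved furthest. Its product is the large ATPase subunit of the MRN complex, which tethers and trims broken ends together with Mre11 and Nbs1. The unit (SPAC1556.01c, chromosome I, 3791772 to 3795990, minus strand, 4 introns) was at 149 and 236 normalised CPM at 0 h, 216 and 295 at 2.5 h and 78.9 and 91.9 at 4.5 h. Both 4.5 h libraries were below all 4 earlier ones, while 0 h and 2.5 h overlapped. The log2 fold change was 0.41 at 2.5 h (SE 0.27, adjusted p = 0.332) and -1.17 at 4.5 h (SE 0.27, adjusted p = 0.0338), a level 2.25-fold lower than at 0 h. From 2.5 to 4.5 h it fell by 1.58 on the log2 scale (SE 0.27, adjusted p = 0.0307). At 2.5 h the value was 0.011 without replicate 1 of 0 h and 0.77 without replicate 2 of 0 h. The fall of rad50 against 0 h was -1.57 without replicate 1 of 0 h and -0.79 without replicate 2 of 0 h. With 1 library left at 0 h the spread comes from the treated libraries only, so only the size of the change is given.

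The partner genes did not pass at either time. By the same test mre11 was at 0.24 (SE 0.16, adjusted p = 0.343) and 0.25 (SE 0.16, adjusted p = 0.333), and nbs1 at 0.03 (SE 0.17, adjusted p = 0.927) and 0.34 (SE 0.17, adjusted p = 0.207). Both were named for the complex. Whether rad50 differed from them was not tested.

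**Figure D3:**
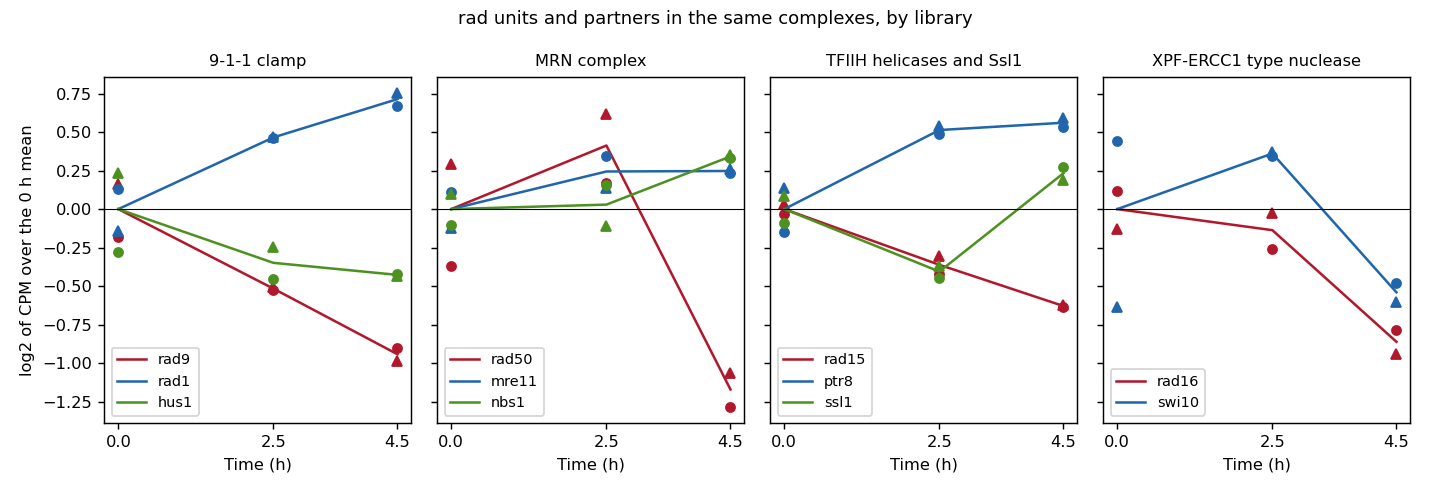
log2 of normalised CPM over the mean of 0 h for rad units and their partners in 4 complexes, against time in h, with a circle and a triangle for replicates 1 and 2 and lines through the means. In the MRN panel the 4.5 h points of rad50 lie far below those of mre11 and nbs1, and in the clamp panel rad9 and rad1 part.

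Of the other recombination genes described here, none passed. The annealing factor gene rad52 shares a unit with izh3, and that unit was at 441 and 553 normalised CPM at 0 h and at 378 and 387 at 4.5 h, a change of -0.38 (SE 0.17, adjusted p = 0.175). The translocase gene rad54 was at -0.50 at 2.5 h (SE 0.21, adjusted p = 0.152) and -0.35 at 4.5 h. The changes at 4.5 h were smallest for the recombination mediator genes, with -0.02 (SE 0.18, adjusted p = 0.942) for rad55, in 1 unit with pil2, and 0.06 (SE 0.21, adjusted p = 0.863) for rad57. The intervals of 1 SE around these values reach from below to above 0.

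In nucleotide excision repair 2 of the 3 rad genes fell at 4.5 h, where 7.8% of all tested units and 8.3% of coding units did. Of 20 other units of this pathway 1 fell and 0 rose. The gene rad16 encodes the XPF-type nuclease subunit that cuts on the 5' side of a lesion. Its unit (SPCC970.01, chromosome III, 514916 to 518108, minus strand), with 8 introns the most of any rad unit, was at 62.0 and 52.3 normalised CPM at 0 h, 47.9 and 56.1 at 2.5 h and 33.2 and 29.8 at 4.5 h. The 4.5 h libraries were below all others. The change was -0.14 at 2.5 h (SE 0.17, adjusted p = 0.629) and -0.86 at 4.5 h (SE 0.17, adjusted p = 0.0242), and -0.72 (SE 0.18, adjusted p = 0.0531) from 2.5 to 4.5 h. Its partner gene swi10, named for the complex, was at -0.53 at 4.5 h (SE 0.40, adjusted p = 0.393).

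The gene rad15 encodes the XPD-type helicase of TFIIH, a complex that serves both repair and transcription. Its unit (SPAC1D4.12, chromosome I, 664352 to 667496, plus strand) was at 144 and 150 normalised CPM at 0 h, 110 and 119 at 2.5 h and 94.9 and 95.5 at 4.5 h. Each time point was below the one before it with no overlap. The change was -0.36 at 2.5 h (SE 0.13, adjusted p = 0.113) and -0.63 at 4.5 h (SE 0.13, adjusted p = 0.0267), a 1.55-fold lower level. For ptr8, the other TFIIH helicase gene, the value at 4.5 h was 0.56 (SE 0.16, adjusted p = 0.0547). For the TFIIH subunit genes ssl1 and tfb1 it was 0.23 (adjusted p = 0.318) and 0.10 (adjusted p = 0.702), all named for the complex. At 2.5 h ssl1 was at -0.41 (adjusted p = 0.114), and its step of 0.64 (SE 0.15, adjusted p = 0.0482) from 2.5 to 4.5 h passed. The third gene, rad13 of the XPG-type nuclease, was at 0.36 at 4.5 h (SE 0.30, adjusted p = 0.445), and its 0 h libraries were 70.2 and 121 normalised CPM.

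The flap endonuclease gene rad2, which acts in replication and base excision repair, was at 29.3 and 30.4 normalised CPM at 0 h, 21.7 and 19.4 at 2.5 h and 16.2 and 22.4 at 4.5 h. All treated libraries were below both 0 h libraries. The change was -0.54 at 2.5 h (SE 0.21, adjusted p = 0.135) and -0.63 at 4.5 h (SE 0.21, adjusted p = 0.0921). DESeq2 called the later fall, edgeR did not.

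The damage tolerance gene rad8 encodes a ubiquitin ligase with a helicase domain that acts on the sliding clamp PCNA at blocked forks. Its unit (SPAC13G6.01c, chromosome I, 170518 to 174673, minus strand) was at 254 and 289 normalised CPM at 0 h, 171 and 221 at 2.5 h and 132 and 126 at 4.5 h. The 3 groups did not overlap, and each was below the one before. The change was -0.47 at 2.5 h (SE 0.17, adjusted p = 0.118) and -1.07 at 4.5 h (SE 0.18, adjusted p = 0.014), a 2.1-fold lower level. The lowest adjusted p among the rad units at 4.5 h was that of rad8. With 1 library left out its change at 4.5 h ranged from -1.27 to -0.97.

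A noncoding unit without an annotated gene (chromosome I, 170275 to 170810, plus strand) overlaps the last 293 bases of rad8 on the other strand. It was at 3.22 and 4.85 normalised CPM at 0 h, 13.4 and 10.8 at 2.5 h and 8.60 and 9.50 at 4.5 h, with every treated library above both 0 h libraries. Its log2 fold changes of 1.58 at 2.5 h (SE 0.28, adjusted p = 0.0155) and 1.16 at 4.5 h (SE 0.28, adjusted p = 0.038) passed, opposite in sign to those of rad8. Whether the 2 are linked was not tested. Of the 5 noncoding units that overlap a rad unit on the other strand, this was the only one that passed, and 1 opposite rad31 was not tested. At 2.5 h 12.3% of all tested units rose and at 4.5 h 10.1%, against 7.65% and 7.38% of coding units. Noncoding units taken alone thus rose more often than all units together. A pair opposite rad31 and one opposite rad57 had under 2 CPM in every library, and SPNCRNA.904, opposite the 5' end of rad24, was at 49.9 to 63.9 CPM throughout with changes of 0.12 and -0.11.

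The remaining genes act in the SUMO pathway and in cohesin. The gene rad60 encodes a protein with SUMO-like domains that works with the SMC5/6 complex. Its unit (SPBC1921.02, chromosome II, 2406833 to 2408220, plus strand) was at 46.2 and 59.3 normalised CPM at 0 h, 32.8 and 34.9 at 2.5 h and 46.4 and 47.6 at 4.5 h. The 2.5 h libraries were below the 4 others. The change was -0.64 at 2.5 h (SE 0.18, adjusted p = 0.0543), -0.17 at 4.5 h (adjusted p = 0.548) and 0.47 (SE 0.18, adjusted p = 0.131) between them. The gene rad31, of the SUMO-activating enzyme, was at 18.4 and 8.99 normalised CPM in the libraries of 0 h, and its change of 0.53 at 2.5 h (SE 0.34, adjusted p = 0.327) was smaller than that gap.

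The cohesin gene rad21, whose product closes the ring that holds sister chromatids together, was the single rad unit that lay below both 0 h libraries at 2.5 h and above both at 4.5 h, an order that 3.36% of all tested units show. Its unit (SPCC338.17c, chromosome III, 1342926 to 1345794, plus strand) was at 149 and 160 normalised CPM at 0 h, 133 and 133 at 2.5 h and 178 and 195 at 4.5 h. The changes were small, -0.21 (SE 0.13, adjusted p = 0.313) and 0.27 (SE 0.13, adjusted p = 0.208), and the step of 0.49 (SE 0.13, adjusted p = 0.0668) from 2.5 to 4.5 h did not pass.

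The 6 calls at 4.5 h remained, gene for gene, with DESeq2 size factors, with library totals, with no filter, with the stricter filter and by DESeq2, which added rad2. Without replicate 1 of 0 h there were 14 calls among the rad units (63.6%), where 41.5% of all units were called, and without replicate 2 of 0 h 9 (40.9%), where 40.4% were. All 6 were called in both of those fits. At 2.5 h the fit without replicate 1 of 0 h called 11 rad units, where 42.0% of all units were called: rad1 and rad31 higher, and rad15, rad2, rad21, rad26, rad52, rad54, rad60, rad8 and rad9 lower. The fit without replicate 2 of 0 h called 6, where 41.0% were: rad13, rad3, rad4 and rad50 higher, and rad24 and rad60 lower. The fall of rad60 was in both, at -0.92 and -0.46, and that of rad9 at 2.5 h was -0.79 and -0.34. Without either library of 2.5 h rad8 was the 1 call left, where 6.34% and 6.31% of all units were called, and without either library of 4.5 h 0 rad units were called, where 2.04% and 0.907% of all units were. The single call between 2.5 and 4.5 h, rad50, became 8 without either 0 h library (38.3% and 38.4% of all units called) and 0 without any 1 of the other 4 libraries, where 0 of all units were called.

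**Figure D4:**
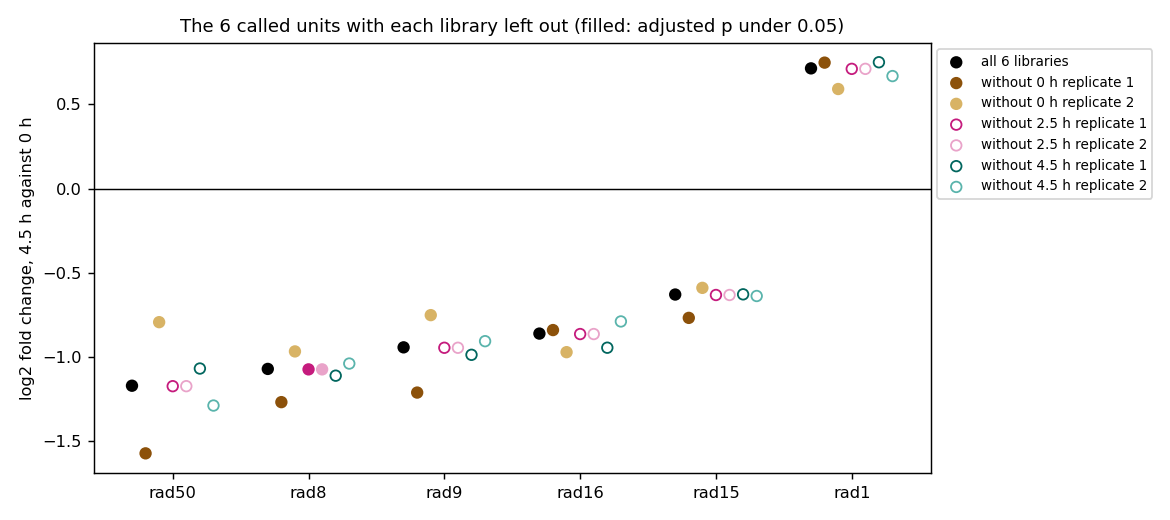
log2 fold change at 4.5 h against 0 h of the 6 called rad units, with all 6 libraries and with each library left out, and filled points for an adjusted p under 0.05. All values keep their sign, and the values of rad50 spread most, from -1.57 to -0.79.

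The rad units were set beside other genes of the same pathways that carry different names, in 11 lists with 152 tested units in all. Of these units 14 rose and 11 fell at 4.5 h (16.4% called, median 0.02), and 14 rose and 3 fell at 2.5 h (11.2%, median 0.06). The share called was thus near the 15.7% and 13.5% of all coding units. By direction 7.38% of coding units rose and 8.3% fell at 4.5 h, the shares to set beside the small counts of each list. In the checkpoint list 1 of 14 rose and 2 fell at 4.5 h. The gene dfp1, of the activating subunit of the replication kinase Hsk1, was at 0.72, and mdb1, of a protein that binds phosphorylated histone at breaks, at -1.09. The unit shared by rex3 and the phosphatase gene clp1 was at -0.66.

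In the homologous recombination list 3 of 25 rose and 2 fell. The largest changes among those that passed were swi5 (1.13), of a recombination cofactor, ssb2 (0.99), of the middle subunit of the single-strand binding protein RPA, and rdl1 (-0.97), of a recombination mediator. In nucleotide excision repair 0 of 20 rose and 1 fell, the damage-binding gene ddb1 (-0.56). In translesion synthesis and PCNA ubiquitination 0 of 13 rose and 1 fell, the polymerase zeta subunit gene rev7 (-1.28). In base excision repair 0 of 10 rose and 2 fell, tdp1 (-1.72), of a phosphodiesterase that clears trapped topoisomerase, and the glycosylase gene myh1 (-0.78).

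The mismatch repair list had 1 rise and 1 fall among 7, msh6 (1.15) and msh1 (-0.80). The end joining list had 0 calls among 4, with xlf1 at -1.34 (SE 0.50, adjusted p = 0.117) and the ligase gene lig4 at -0.40 (SE 0.18, adjusted p = 0.179). Of 17 cohesin and SMC5/6 units 4 rose and 0 fell, among them nse5 (1.03), the securin gene cut2 (1.01) and the unit of rhb1 and wpl1 (0.80). Of 8 SUMO units 2 rose and 0 fell, the conjugating enzyme gene hus5 (1.09) and the ubiquitin ligase gene rfp1 (1.07), with a list median of 0.62. In the list of dNTP supply 2 of 10 rose, spd1 (1.19), of a ribonucleotide reductase inhibitor, and cdt2 (0.73), and 2 fell, among them hal3 (-0.69). In the list of replication start and clamp loading 1 of 25 rose, psf2 (0.98), and 1 fell, cdc45 (-1.27).

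**Figure D5:**
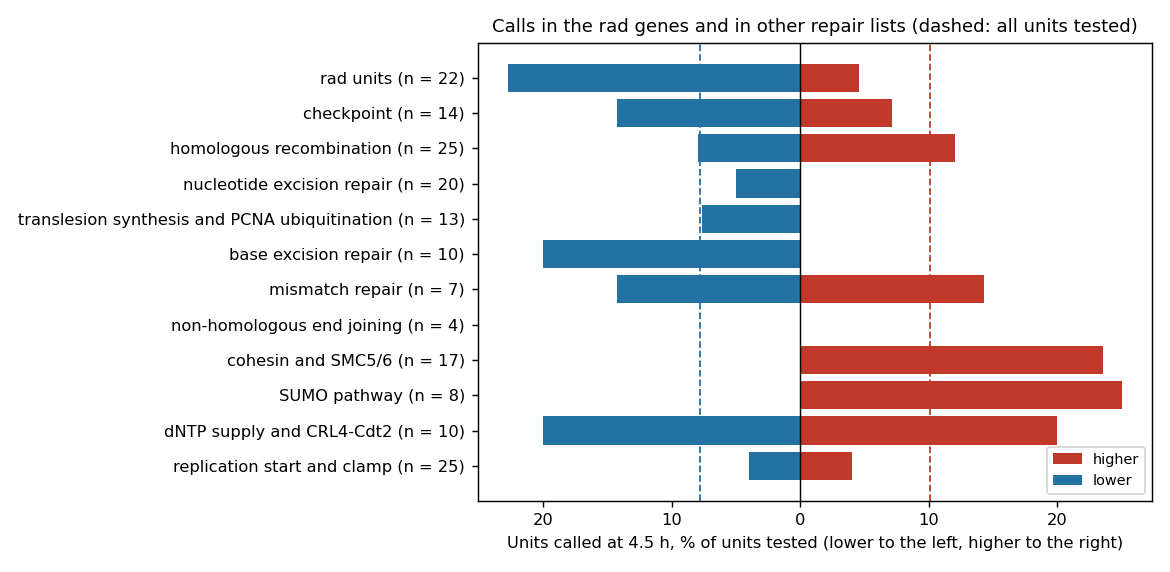
Share of tested units called lower (blue, left) and higher (red, right) at 4.5 h against 0 h, in % of the units of each list, for the rad units and 11 other lists, with dashed lines for all tested units (7.8% lower and 10.1% higher). The rad units have 22.7% lower and 4.55% higher. Among coding units, not drawn, 8.3% were lower and 7.38% higher.

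Length, introns and half-life were not used to choose the members and are given as a description. By the authors' deposited table the median unit length was 2750 bases against 1840 for coding units, with 5 of 22 rad units below that coding median, and 15 of 22 (68.2%) have introns, against 50.5% of coding units. By the authors' deposited half-life estimates, used only as ranks because no time unit is stated, 16 of 21 rad units with a value lie below the median of coding units. For synthesis time in the authors' deposited table this holds for 12 of 21, and for splicing time for 6 of 14. In the authors' deposited table rad55 and rad21 rank shortest in half-life, at percentiles 0.965 and 2.27, and rad24, rad2 and rad25 longest, at 92.1, 84.7 and 82.0. The table has no half-life for rad50. The 5 that fell include units with 0, 3, 4 and 8 introns.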

How the data were processed

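Reads were aligned with STAR 2.3.0 to ASM294v2 and handled with SAMtools, per the submitters' processing notes. The deposited raw counts per transcription unit, 1 file per library, were used as they stand. How reads were assigned to units, by strand or when mapping to several places, is not given in the sources used here. Unit boundaries, introns and half-life scores come from the authors' deposited table. Symbols and sequences come from RefSeq. Of 5062 gene IDs 5028 matched RefSeq genes, all at overlapping positions, and 99.6% of introns began with GT and ended with AG in that genome.

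Counts were filtered (filterByExpr), scaled (TMM) and tested with edgeR 4.0.16 (R 4.3.3) in 1 quasi-likelihood fit of all 6 libraries on time, with 3 residual degrees of freedom and Benjamini-Hochberg adjustment over 5208 units at a threshold of 0.05. The standard error is the log2 fold change divided by the square root of its F statistic. A floor of 3 counts is 0.26 CPM in the shallowest library and covers counting error only. Alternatives used DESeq2 1.42.0, other scalings and filters, a replicate block and each library left out. Values per library are printed for every unit past the threshold and for those with the next lowest p, up to 12 units, and for some others to show a gap between libraries or an overlapping unit; overlapping units and partner genes were chosen for position or complex. For 1 of the 22 members no values of its own are reported here, though counts and medians over the 22 include it. The members and lists were chosen with earlier results of these data known.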

Additional observations from a re-analysis of the deposited data

Results flagged for a closer look

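The change of rad50 differed between the 2 treated times: its log2 fold change at 4.5 h minus that at 2.5 h was -1.58 (SE 0.27, adjusted p = 0.0307 by edgeR's quasi-likelihood test), from 0.41 at 2.5 h (0.011 without replicate 1 of 0 h and 0.77 without replicate 2 of 0 h) to -1.17 at 4.5 h, and both 4.5 h libraries lay below both 2.5 h libraries. Both changes share the same 0 h libraries. Without any 1 of the 2.5 h or 4.5 h libraries the difference ranged from -1.79 to -1.34 and did not pass, in fits where 0 of all units passed.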

How the results depend on the processing

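With 2 libraries a group, the number of calls rests on the estimated spread. At 2.5 h 1 rad unit, rad60, was called by DESeq2, with no filter on low counts and with the replicate block (22.5%, 16.9% and 18.8% of all units called), and 0 to 11 with 1 library left out. At 4.5 h the count was 1 with only the 2 time points compared (7.02% of all units) and 0 to 14 with 1 library left out. Between 2.5 and 4.5 h it was 2 by DESeq2, with library totals and with the replicate block (17.7%, 6.3% and 11.3% of all units; the block added rad4), 8 with only the 2 time points compared (38.8% of all units) and 0 to 8 with 1 library left out (0 to 38.4% of all units). Median log2 fold changes with 1 library left out ranged from -0.27 to -0.0072 at 2.5 h, from -0.50 to -0.068 at 4.5 h and from -0.18 to -0.016 between them. Signs with 1 library left out were followed only for the units past the threshold and those with the next lowest p. Among these the sign turned only for values uncalled in the fit of all 6 libraries: rad3 at 4.5 h (-0.17 to 0.42), rad60 at 4.5 h (-0.44 to 0.033) and rad2 between 2.5 and 4.5 h (-0.34 to 0.13, with 0.00056 without replicate 1 of 2.5 h). For the remaining rad units a turn of sign was not followed. All fits with a library left out have 2 residual degrees of freedom instead of 3, and the group left with 1 library adds nothing to the estimated spread. Why the number of calls differed among these fits was not tested. Of the other values of the followed units under an alternative, 360 kept direction and side of the threshold, 34 newly passed and 31 no longer passed. The replicate block left the 6 calls at 4.5 h as they were; same-numbered libraries deviated together with correlations of 0.46, 0.21 and 0.10, but the labels do not say that a number marks a shared culture.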

Other observations

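The 128 coding units with ACGCGT in the 300 bases before their start did not lean one way: 11 rose and 7 fell at 2.5 h (median log2 fold change -0.07), and 9 rose and 10 fell at 4.5 h (median -0.02), beside medians of -0.06 and -0.03 for all coding units. Other subunit genes of complexes that hold a rad protein were, at 4.5 h, 0.62 for smc6 (SE 0.16, adjusted p = 0.0441) and -0.02 for smc5 (SE 0.19, adjusted p = 0.951), the SMC5/6 pair that Rad60 works with, and 0.64 for psm3 (SE 0.24, adjusted p = 0.121) and 0.04 for psm1 (SE 0.19, adjusted p = 0.902), the cohesin pair that Rad21 closes. The kinase genes downstream of Rad3 did not pass at either time, with chk1 at 0.44 (adjusted p = 0.107) and 0.27 (adjusted p = 0.277) and cds1 at -0.43 (adjusted p = 0.151) and 0.06 (adjusted p = 0.844).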
